A study of Mus musculus with 6 samples.

Results

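Several transcripts with no known role in Schwann cells or muscle differed sharply between erbB3 mutant and wild-type (WT) diaphragm, among them the long noncoding RNA 2610507I01Rik, the centrosome gene Sfi1 and the zinc finger gene Zfp979. These 3 genes, out of 23073 with a value in the deposited data, were chosen on that difference and on the closeness of the replicate libraries. The comparison of mutant with WT muscle is therefore given for them as a description without a test. They were then followed into the Wnt1-Ribotag libraries and along their chromosomes, and compared with the genes that lie beside them or share sequence with them.

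RNA of the diaphragm muscle of mouse embryos at E14.75 was sequenced in 6 libraries, 2 of each of 3 kinds. The erbB3 KO libraries, numbered 1 and 2, were made from total RNA of muscle that lacks Schwann cells, the glia of peripheral nerve. The erbB3 WT libraries, numbered 5 and 6, were made from total RNA of muscle that has these cells. In all 3 kinds of library, mRNA was selected on oligo-dT beads before sequencing. The Wnt1-Ribotag libraries, numbered 1 and 2, come from mice of the genotype Wnt1-Cre, Ribotag, erbB3 WT. In these mice Cre recombinase driven by Wnt1, a gene of the neural crest from which Schwann cells arise, switches on a ribosomal protein with a hemagglutinin tag, and polysomes were pulled down with an antibody against the tag. Each Wnt1-Ribotag library came from the pooled diaphragms of a whole litter, of which only some embryos were found Cre-positive by later genotyping. It was made from far less RNA than the whole-muscle libraries. The labels give no strain, sex or litter for the KO and WT embryos, so strain, litter and erbB3 genotype cannot be told apart between these groups. The study describes the WT and mutant replicates as different diaphragm samples, and p-values measure the spread between 2 such libraries. In such bulk RNA, fewer cells of a type and less RNA per cell cannot be told apart.

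Values are RPKM, read numbers divided by the length of the gene and by the mapped reads of the library. The depth implied by the lowest values was between 100178863 and 230216660 reads per library, and between 17205 and 20349 genes lay above the floor. Erbb3 itself did not separate the genotypes, with 16.5 and 15.8 RPKM in WT, 21.5 and 11.9 RPKM in KO, and a log2 difference of -0.01 (adjusted p = 0.992, limma). Which part of the gene the reads covered was not tested. Sox10, the transcription factor that defines the Schwann cell lineage, stood at 2.89 and 2.16 RPKM in WT, at 0.00854 and 0.0178 RPKM in KO, and at 15.5 and 32.2 RPKM in Wnt1-Ribotag libraries. Markers of hepatocytes also moved between the groups, with a summed RPKM of 8 genes of 500.2 and 151.9 in WT, 17.7 and 10.2 in KO, and 269.9 and 195.6 in Wnt1-Ribotag libraries. Of these 8 genes, 2 passed the threshold between KO and WT (an adjusted p under 0.05 in limma), both lower in KO, against 0.121% of all genes tested, and the median log2 difference was -3.21.

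Sfi1 encodes a long repeat protein that binds centrins at the centrosome, the organelle that anchors microtubules and that templates the mitotic spindle. Zfp979, also listed as Ssm1b, belongs to a family of KRAB zinc finger genes. Proteins of this family bind DNA through their zinc fingers and recruit the corepressor encoded by Trim28, which brings histone and DNA methylation to transposable elements and transgenes, and Ssm1b takes its name from a strain-specific modifier of transgene methylation. 2610507I01Rik is transcribed away from Mrpl55, a gene for a protein of the mitochondrial ribosome, and its RNA has no known product. KRAB zinc finger genes lie in clusters of close copies that differ in number between mouse strains.

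On the GRCm38 build, 2610507I01Rik (ENSMUSG00000085882) lies on the minus strand of chromosome 11 from 59199836 to 59202385, as 1 transcript of 2 exons and 1360 exon bases. Sfi1 (ENSMUSG00000023764) lies on the minus strand near the start of the same chromosome, from 3131850 to 3193463, with 20 transcripts and 7559 exon bases. The interval between the 2 genes is 56.0 Mb. Zfp979 (ENSMUSG00000066000) lies on the minus strand of chromosome 4 from 147611937 to 147642513, with 4 transcripts and 4111 exon bases. Erbb3 lies on chromosome 10, from 128567523 to 128589652, and so shares a chromosome with none of the 3.

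The start of the noncoding RNA is shown because it faces the start of Mrpl55. In the RefSeq annotation of GRCm38.p6 the interval between their starts is only 54 bases, printed in capitals within chr11:59202382-59202515, minus strand.
2610507I01Rik: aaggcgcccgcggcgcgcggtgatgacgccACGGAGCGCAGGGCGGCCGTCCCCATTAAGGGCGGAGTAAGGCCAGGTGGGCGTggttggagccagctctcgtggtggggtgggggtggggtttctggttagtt
The capitals hold 6 CpG dinucleotides and the whole stretch of 134 bases holds 14. The 250 bases before its start held 24 CpG, a number reached or passed by 12.0% of the RefSeq promoters of this length.

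The stretch before the start of Zfp979 is shown beside that of Zfp982, a member of the same cluster, because the pair share much of this sequence and differed in RNA level. These are the 250 bases before the RefSeq start, chr4:147642509-147642758 on the minus strand for Zfp979 and chr4:147492167-147492416 on the plus strand for Zfp982, with their longest identical run of 42 bases in capitals.
Zfp979: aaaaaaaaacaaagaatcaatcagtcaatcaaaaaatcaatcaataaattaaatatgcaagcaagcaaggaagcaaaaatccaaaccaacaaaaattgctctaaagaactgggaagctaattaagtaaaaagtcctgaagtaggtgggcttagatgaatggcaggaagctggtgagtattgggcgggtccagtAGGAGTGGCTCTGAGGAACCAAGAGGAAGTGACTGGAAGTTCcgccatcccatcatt
Zfp982: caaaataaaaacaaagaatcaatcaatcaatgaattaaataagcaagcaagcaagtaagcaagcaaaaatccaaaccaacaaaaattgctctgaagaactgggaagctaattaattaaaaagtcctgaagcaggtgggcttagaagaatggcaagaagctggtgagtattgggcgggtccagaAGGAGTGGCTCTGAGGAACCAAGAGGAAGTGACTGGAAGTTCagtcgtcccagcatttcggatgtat
RefSeq lists 3 starts for Zfp982, and the one most like that of Zfp979 is shown. The aligned stretches were identical over 83.5% of 266 columns, against 68.4% for Zfp979 and Zfp984, another gene of the cluster. Both stretches above are poor in CpG, with 2 and 3 sites, and 81.2% of all RefSeq promoters of this length have at least as many as Zfp979. Each holds the motif CCAAT, found on either strand in 33.8% of 32851 promoters, and the motif GGGCGG, found in 32.7%, and neither holds TATAAA, found in 12.4%. The 250 bases before 2610507I01Rik hold GGGCGG alone of these 3 motifs.

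2610507I01Rik was low in WT muscle and about an order of magnitude higher elsewhere. It measured 0.444 and 0.338 RPKM in WT 5 and WT 6, 3.33 and 3.18 RPKM in KO 1 and KO 2, and 2.23 and 5.72 RPKM in Wnt1-Ribotag 1 and 2. Both WT libraries lay below the other 4, and the KO libraries lay between the 2 Wnt1-Ribotag libraries. The means were 0.391 ± 0.0753 RPKM in WT, 3.26 ± 0.106 RPKM in KO and 3.98 ± 2.47 RPKM in Wnt1-Ribotag libraries (SD, n = 2 each).

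Sfi1 was highest in the KO libraries. It measured 5.11 and 5.66 RPKM in WT 5 and WT 6, 18.5 and 17.0 RPKM in KO 1 and KO 2, and 3.53 and 3.23 RPKM in Wnt1-Ribotag 1 and 2. The 3 groups did not overlap, with the Wnt1-Ribotag libraries lowest. The means were 5.38 ± 0.388 RPKM in WT, 17.7 ± 1.04 RPKM in KO and 3.38 ± 0.213 RPKM in Wnt1-Ribotag libraries (SD, n = 2 each).

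Zfp979 was almost missing from the KO libraries. It measured 1.22 and 1.28 RPKM in WT 5 and WT 6, 0.0188 and 0.0160 RPKM in KO 1 and KO 2, and 1.49 and 2.27 RPKM in Wnt1-Ribotag 1 and 2. By the implied depth this is 2.46 and 3.68 reads per kilobase in the KO libraries and between 121.8 and 389 in the other 4. The means were 1.25 ± 0.0421 RPKM in WT, 0.0174 ± 0.00204 RPKM in KO and 1.88 ± 0.549 RPKM in Wnt1-Ribotag libraries (SD, n = 2 each).

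**Figure D1:**
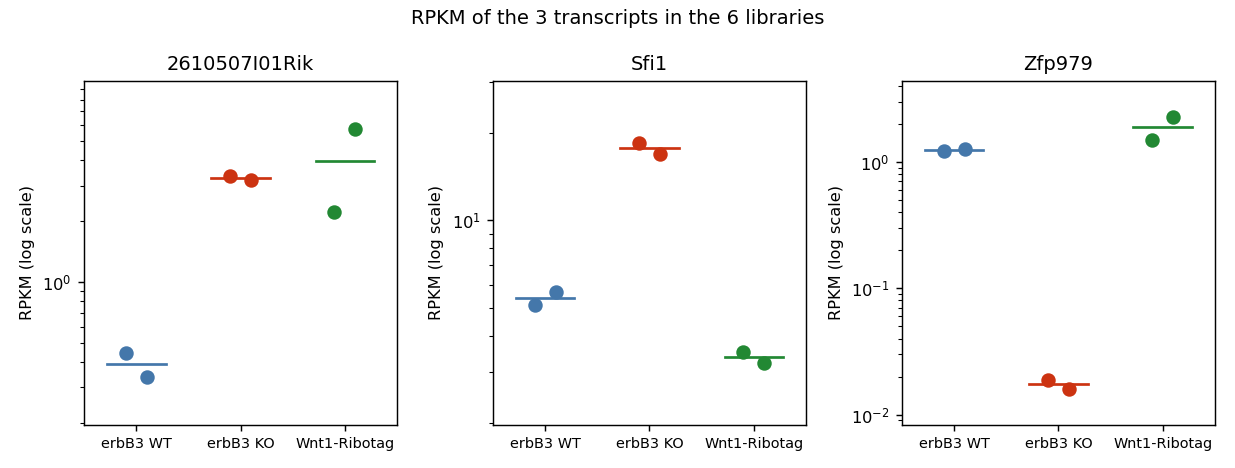
RPKM of 2610507I01Rik, Sfi1 and Zfp979 on log axes that differ between the panels, with 1 point per library and a line at the mean of each group of 2. The Wnt1-Ribotag points lie with KO for 2610507I01Rik, just under WT for Sfi1 and with WT for Zfp979, where the KO libraries sit at 0.0188 and 0.0160 RPKM.

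Between KO and WT, the mean RPKM of 2610507I01Rik was 8.33-fold higher and that of Sfi1 3.29-fold higher in KO, whereas Zfp979 in KO was 1.40% of its WT level. On the log2(RPKM + 0.5) scale, which understates the change of genes this low, the differences were 2.08 (SE 0.16), 1.63 (SE 0.14) and -1.75 (SE 0.16). Over the 4 pairs of a KO and a WT library they ranged from 1.96 to 2.19, from 1.51 to 1.76 and from -1.78 to -1.73, while the median over all 14052 genes tested was -0.10. These values placed 2610507I01Rik 4th and Sfi1 7th from the highest, and Zfp979 57th from the lowest. All 3 passed the minimum mean of 0.5 RPKM, 2610507I01Rik and Zfp979 only through the group where they are high. Over all genes tested in this comparison, 24 passed the threshold of an adjusted p under 0.05 (limma, 0.171%). In KO 17 of these fell (0.121%) and 7 rose (0.0498%), and 1691 had an unadjusted p under 0.05 (12.0%). No gene passed the threshold when genes of any level entered, with 2155 at an unadjusted p under 0.05. The groups did not overlap for any of the 3, nor for 50.0% of all genes tested. Since the genes were picked on this difference, their place in it describes the choice.

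**Figure D2:**
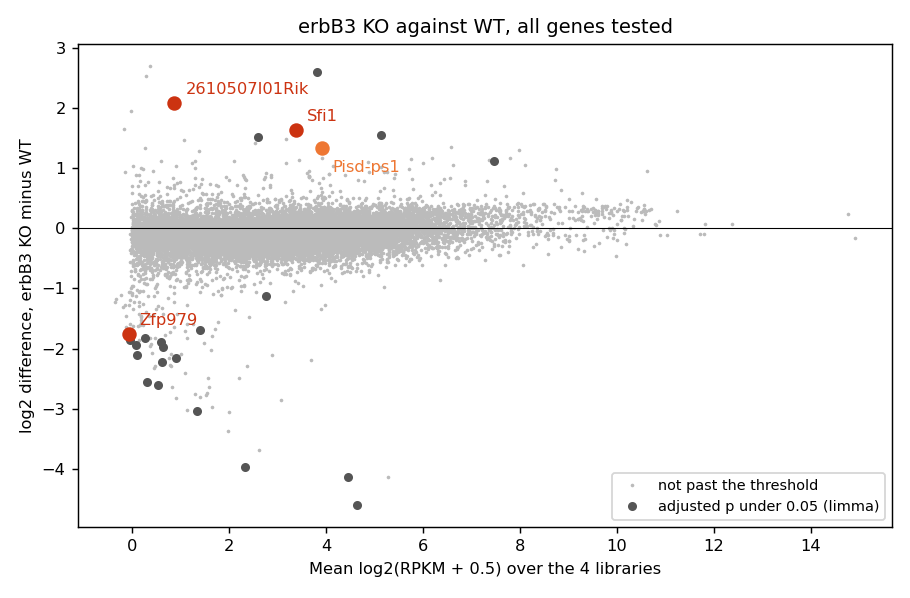
Difference between erbB3 KO and WT on the log2(RPKM + 0.5) scale against the mean level over the 4 libraries, with 1 point per gene for 14052 genes, the 24 with an adjusted p under 0.05 in dark grey, the 3 chosen genes in red and Pisd-ps1 in orange. 2610507I01Rik and Sfi1 stand above the cloud at 2.08 and 1.63, Pisd-ps1 at 1.33, and Zfp979 stands below it at -1.75.

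The sex of the embryos was read from X- and Y-linked RNA, which was chosen after values were seen. Xist, expressed from the inactive X chromosome, measured 143.7 and 181.7 RPKM in WT, 146.4 RPKM in KO 1 and 0.0808 RPKM in KO 2. The Y-linked Ddx3y was at 16.2 RPKM in KO 2 and at most 0.0117 RPKM in KO 1 and both WT libraries. Both Wnt1-Ribotag libraries, pools of embryos, held Xist, at 71.4 and 52.8 RPKM, and Ddx3y, at 9.90 and 7.97 RPKM. The part of sex in the 3 genes was not tested.

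The summed hepatocyte markers, given above, were lower in both KO libraries than in the other 4, as was Zfp979. The summed RPKM of 6 neuron markers was 10.4 and 54.8 in WT, 4.84 and 8.72 in KO, and 101.4 and 457.5 in Wnt1-Ribotag libraries. It too was lowest in KO, with a median log2 difference between KO and WT of -1.56 over the 5 tested, none of which passed the threshold. An unadjusted p under 0.05 was found for 4 of the 5, against 12.0% of all genes. The summed markers of the Schwann lineage were 64.0 and 55.6 RPKM in WT, 49.9 and 28.2 in KO, and 189.0 and 380.6 in Wnt1-Ribotag libraries. Between KO and WT, 4 of 10 tested passed the threshold, all lower in KO, against 0.121% of all genes tested. The part of these cell types in the 3 genes was not tested.

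The Wnt1-Ribotag libraries differ from both other groups in the kind and amount of RNA, the cells sampled and the mouse line. These cannot be told apart in the comparisons below, so the libraries are not a second set of WT muscle. They are erbB3 WT and took no part in the choice of the genes. Each comparison with them, however, has as its other side a group whose values led to that choice. The differences are therefore given as descriptions, with no p. Against WT muscle, 2610507I01Rik was 10.2-fold higher in mean RPKM, with a log2 difference of 2.21 (SE 0.46), and entered the comparison only through its Wnt1-Ribotag level. Sfi1 stood at 0.627 of its WT mean (log2 difference -0.60, SE 0.19). Zfp979 stood at 1.51 times its WT mean (log2 difference 0.43, SE 0.29), with a difference of 0.67 without Wnt1-Ribotag 1 and of 0.19 without Wnt1-Ribotag 2. The libraries of the 2 groups did not overlap for any of the 3, nor for 54.3% of all genes. Of 14418 genes tested 1 passed the threshold (0.00694%), while 2813 had an unadjusted p under 0.05 (19.5%).

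Against KO muscle, Sfi1 in Wnt1-Ribotag libraries was at 0.190 of the KO mean, a log2 difference of -2.23 (SE 0.22). Zfp979 had a mean 108-fold that of KO and a log2 difference of 2.18 (SE 0.40), and entered the comparison only through its Wnt1-Ribotag level. 2610507I01Rik differed by 0.13 (SE 0.41), less than the spread between its own Wnt1-Ribotag libraries. Without Wnt1-Ribotag 2, the library in which it reached 5.72 RPKM, its difference from KO turned to -0.46. Of 14325 genes, 171 passed the threshold (1.19%), of which 25 (0.175%) were lower and 146 (1.02%) higher in Wnt1-Ribotag libraries, and 2758 had an unadjusted p under 0.05 (19.3%). When genes of any level entered, the balance turned, with 99 lower and 13 higher.

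Sfi1 has a close neighbour that moved with it. Pisd-ps1, a pseudogene of the phosphatidylserine decarboxylase gene Pisd, runs in the opposite direction on chromosome 11 from 3125904 to 3131004 and ends 846 bases from Sfi1. It measured 10.2 and 7.95 RPKM in WT, 23.3 and 23.4 RPKM in KO, and 17.0 and 17.0 RPKM in Wnt1-Ribotag libraries, so both KO libraries were the highest. It rose by 1.33 on the log2 scale in KO (SE 0.15, adjusted p = 0.0229, limma). That call was lost when genes of any level entered (adjusted p = 0.248), when all 6 libraries shared a fit (0.224), and without WT 6, KO 1 or KO 2 (0.0526 to 0.0732), at differences of 1.16 to 1.33. Against Sfi1, whose Wnt1-Ribotag libraries were the lowest of the 6, those of Pisd-ps1 lay between WT and KO, with log2 differences of 0.88 from WT (adjusted p = 0.171) and -0.45 from KO (adjusted p = 0.299).

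A second pseudogene, Pisd-ps2 on chromosome 17, measured 4.96 and 4.71 RPKM in WT, 9.75 and 8.98 RPKM in KO, and 2.24 and 5.69 RPKM in Wnt1-Ribotag libraries. Its difference between KO and WT was 0.89 (SE 0.14, adjusted p = 0.0775). The parent gene Pisd, on chromosome 5, measured 9.53 and 8.99 RPKM in WT and 11.2 and 10.3 RPKM in KO, a difference of 0.21 (adjusted p = 0.505). These genes share sequence: of the 1768 stretches of 50 bases in transcripts of Pisd-ps1, 9.28% recur in Pisd transcripts and 6.28% in those of Pisd-ps2. How reads were split between such copies is not given in the sources used here, so their values are uncertain.

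The remaining neighbourhood of Sfi1 was near the median of all genes. Sfi1 has 1 annotated gene on its near side, Pisd-ps1, and with the 25 that follow on the other side, 13 of 26 had a value and 11 were tested. Of the 11, only Pisd-ps1 passed the threshold, against 0.171% of all genes tested, and 2 had an unadjusted p under 0.05, Pisd-ps1 among them, against 12.0% of all genes. The other 10 ranged from -0.40 to 0.12, with a median of -0.16. Drg1, a GTP-binding protein gene whose annotation overlaps Sfi1 on the same strand, measured 44.1 and 44.6 RPKM in WT and 44.3 and 49.1 RPKM in KO. Gm11400, which lies within Sfi1 on its strand, measured 24.7 and 23.7 RPKM in WT and 23.3 and 19.8 RPKM in KO. Reads of overlapping genes on one strand can be counted for either gene, and their part in the Sfi1 values was not tested.

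Around 2610507I01Rik, 33 of the 50 nearest annotated genes had a value and 23 were tested. None passed the threshold, 3 of the 23 had an unadjusted p under 0.05, against 12.0% of all genes tested, and the differences between KO and WT ranged from -0.35 to 0.49 with a median of -0.06. The highest was Mrpl55 itself, which starts 101 bases away in the GENCODE annotation. It was closely followed by Zfp39, 18 places away in gene order, at 0.48 (SE 0.15). Mrpl55 measured 12.2 and 10.6 RPKM in WT, 14.0 and 18.8 RPKM in KO, and 9.73 and 16.7 RPKM in Wnt1-Ribotag libraries. The KO libraries were above WT, but the difference of 0.49 (SE 0.17) had an adjusted p of 0.378. Its ratio of KO to WT means was 1.44, against 8.33 for the noncoding RNA.

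Around Zfp979, 19 of the 50 nearest annotated genes had a value and 14 were tested. None passed the threshold or had an unadjusted p under 0.05, and the differences ranged from -0.34 to 0.41 with a median of -0.23. Around Erbb3, where the mutant allele lies, 27 of 50 were tested, none passed the threshold, 1 had an unadjusted p under 0.05, and the range was from -0.54 to 0.33. The share at an unadjusted p under 0.05 over all genes was 12.0%. Of all genes tested on chromosome 4, 4 of 864 passed the threshold (0.463%), on chromosome 10 it was 2 of 646 (0.310%), and on chromosome 11 it was 4 of 1159 (0.345%), against 0.171% of all genes. Without Zfp979, 2610507I01Rik and Sfi1, which were chosen for this difference, it was 3 of 863 on chromosome 4 and 2 of 1157 on chromosome 11.

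**Figure D3:**
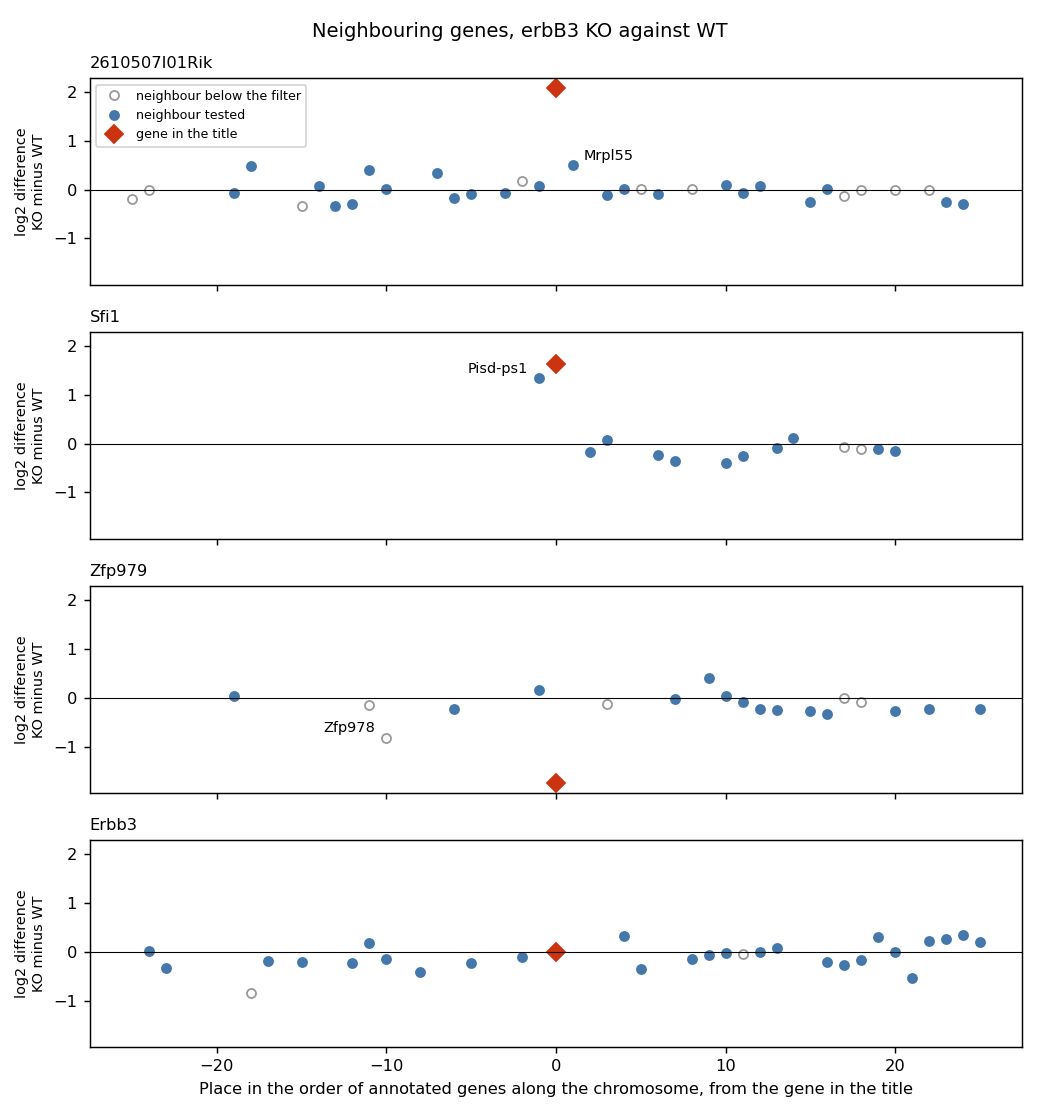
Difference between erbB3 KO and WT on the log2(RPKM + 0.5) scale for annotated neighbours in gene order, up to 25 on each side of 2610507I01Rik, Sfi1, Zfp979 and Erbb3 (red diamonds), with open circles for genes below the minimum mean of 0.5 RPKM. The points that stand furthest from 0 are Pisd-ps1 at 1.33 beside Sfi1, and 2 neighbours below the minimum level, Zfp978 at -0.82 beside Zfp979 and Slc39a5 at -0.85 beside Erbb3.

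Several genes share transcript sequence with Zfp979. Of the 4105 stretches of 50 bases in Zfp979 transcripts, 27.1% recur in transcripts of 22 other genes, led by Zfp600 with 18.9%, Rex2 with 14.5%, Zfp978 with 13.2% and Zfp980 with 5.24%. For Sfi1 the share was 3.98%, and for 2610507I01Rik it was 0 of 1284, by transcripts alone and not by the genome. Of the 22 genes 14 had a value. The 4 named, which alone of the 14 share at least 1% of the stretches, were below the minimum level for the test, and each was lower in both KO libraries than in both WT libraries. In the other 10, Zfp982 and Zfp985 among them, the KO and WT libraries overlapped. Over all genes tested 50.0% did not overlap, and these genes were chosen after values were seen.

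Zfp978, 220.933 kb from Zfp979, measured 0.434 and 0.467 RPKM in WT, 0.0438 and 0.0317 RPKM in KO, and 0.00786 and 0.241 RPKM in Wnt1-Ribotag 1 and 2. Its KO mean was 8.37% of WT. Zfp600 in KO was at 15.5% of its WT mean, Rex2 at 25.1% and Zfp980 at 37.5%. In Wnt1-Ribotag 1 and 2, Zfp600 measured 0.174 and 0.931 RPKM, Rex2 0.203 and 0.639 RPKM, and Zfp980 0.106 and 1.20 RPKM. All 4 were thus below both WT libraries in Wnt1-Ribotag 1, and Zfp978 and Zfp980 were there below both KO libraries as well, whereas Zfp979 in that library was above WT. With all genes entered regardless of level, the differences of these 4 lay between -0.82 and -0.54, with adjusted p of 0.134 for Zfp978, 0.187 for Zfp600, 0.264 for Rex2 and 0.467 for Zfp980 (limma).

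Zfp982, whose upstream stretch is printed above, measured 9.57 and 12.4 RPKM in WT and 9.92 and 8.50 RPKM in KO (log2 difference -0.23, adjusted p = 0.533). Zfp984 measured 9.52 and 11.6 RPKM in WT and 9.20 and 11.6 RPKM in KO (-0.03, adjusted p = 0.954). Zfp985, the annotated gene next to Zfp979, had a difference of 0.15 (adjusted p = 0.773) and measured between 0.422 and 0.904 RPKM in the WT and KO libraries. Reads that match several of these genes may have been split between them, so the low values of Zfp978, Zfp600, Rex2 and Zfp980 and that of Zfp979 may not be separate measurements.

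**Figure D4:**
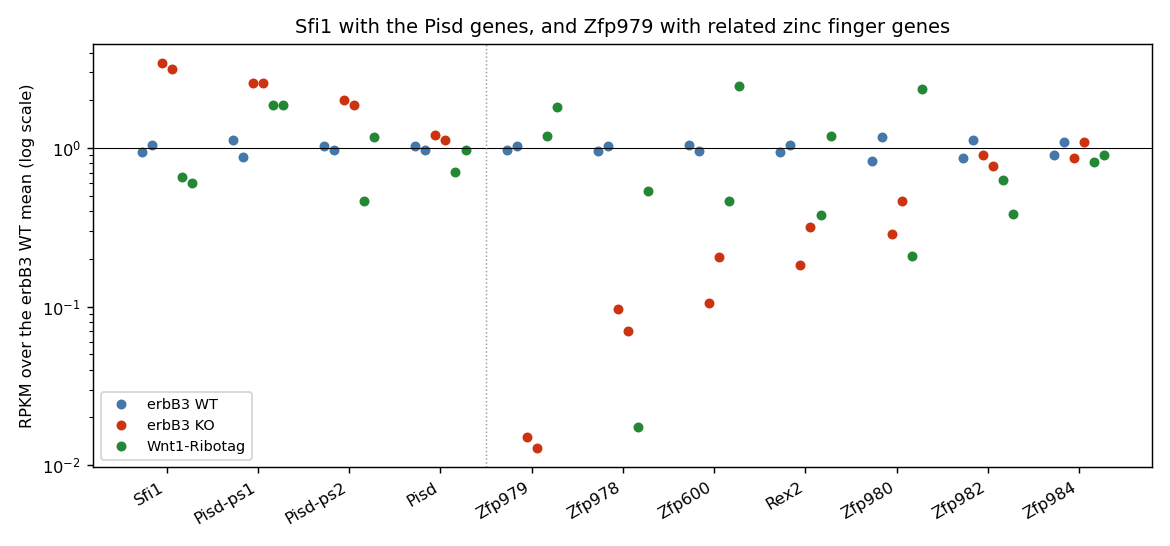
RPKM in each of the 6 libraries divided by the gene's erbB3 WT mean, on a log axis, for Sfi1 and the Pisd genes to the left of the dotted line and for Zfp979 and related zinc finger genes to the right. KO points lie above the line at 1 for Sfi1, Pisd-ps1 and Pisd-ps2, and below it for Zfp979, Zfp978, Zfp600, Rex2 and Zfp980, whereas Zfp984 stays near it.

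The wider groups to which these genes belong held few genes past the threshold. Of 344 genes tested whose symbol begins with Zfp, 1 passed the threshold between KO and WT, against 0.171% of all genes, and it was Zfp979, chosen for that difference. An unadjusted p under 0.05 was found for 27 of the 344 (7.85%), against 12.0% of all genes, and their median difference was -0.04. The 17 of them on chromosome 4, Zfp979 included, had a median of -0.03. An unadjusted p under 0.05 was found for 4 of the 17 (23.5%), the chosen Zfp979 among them, against 12.0% of all genes. Of 18 genes of the KRAB repressor complex none passed it in any comparison (limma), with 6, 4 and 1 at an unadjusted p under 0.05 for KO against WT, Wnt1-Ribotag against WT and Wnt1-Ribotag against KO. These are 33.3%, 22.2% and 5.56% of the list, against 12.0%, 19.5% and 19.3% of all genes tested. The corepressor gene Trim28 measured 140.9 and 142.9 RPKM in WT, 115.1 and 108.2 RPKM in KO, and 90.7 and 87.5 RPKM in Wnt1-Ribotag libraries. Its difference between KO and WT was -0.35 (adjusted p = 0.393). Chd3, a chromatin remodeller, was the lowest of the list in KO at -0.72 (adjusted p = 0.118) and Cbx3, a heterochromatin protein gene, the highest at 0.29 (adjusted p = 0.452).

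Of 35 centriole and centrosome genes tested, none passed the threshold in any comparison (limma), with 1, 5 and 2 at an unadjusted p under 0.05 in the same order. These are 2.86%, 14.3% and 5.71% of the list, against the same shares of all genes. Their median difference between KO and WT was -0.03, from -0.39 for Crocc, the gene for the rootlet protein rootletin, to 0.33 for Cetn3. Cetn2 and Cetn3 encode centrins, the binding partners of the Sfi1 protein. Cetn2 measured 14.77 and 15.5 RPKM in WT and 16.6 and 20.8 RPKM in KO (log2 difference 0.29, adjusted p = 0.451). Cetn3 measured 52.9 and 60.9 RPKM in WT and 66.1 and 77.7 RPKM in KO (0.33, adjusted p = 0.418). The KO libraries were above WT for both, and neither difference passed the threshold. KO and WT libraries did not overlap for 50.0% of all genes tested.

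Genes known to differ in copy number or to carry a null allele between inbred strains were also compared. The list held 9 gene symbols, of which 8 had a value and 5 were tested between KO and WT. None passed the threshold or had an unadjusted p under 0.05, against 12.0% of all genes, and the median difference was -0.03. In the comparisons of Wnt1-Ribotag with WT and with KO none passed the threshold either (limma), and 2 of 6 and 2 of 5 had an unadjusted p under 0.05, against 19.5% and 19.3% of all genes. Glo1, whose region is duplicated in some strains, measured 190.2 and 188.6 RPKM in WT, 214.0 and 248.0 RPKM in KO, and 127.1 and 132.6 RPKM in Wnt1-Ribotag libraries (KO against WT 0.28, adjusted p = 0.452). Alad, duplicated in others, measured 78.4 and 53.7 RPKM in WT, 43.0 and 54.0 RPKM in KO and 27.0 and 21.9 RPKM in Wnt1-Ribotag libraries (KO against WT -0.42, adjusted p = 0.430). Nnt, part of which is deleted in some C57BL/6J mice, measured between 15.7 and 25.8 RPKM in the 6 libraries. Hc, the complement C5 gene of liver, had too low a level for the tests against KO, at 0.839 and 0.244 RPKM in WT, 0.0315 and 0.0144 RPKM in KO, and 0.785 and 0.307 RPKM in Wnt1-Ribotag libraries. The genotypes of the animals at these loci were not analysed here.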

How the data were processed

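The authors deposited 1 table of RPKM per library (reads of a gene over its length and the library's mapped reads) with a mark for genes at a floor value. Per the submitters' processing notes, reads were aligned with STAR to mm9. The program that counted them, its treatment of multiply mapped reads and the read length are not given in the sources used here. The 23076 Ensembl IDs, of which 3 had no value, were joined to GENCODE M21 on GRCm38 (21583 matched). All coordinates are of that build and none were converted. Depth was read from the floor of microRNA genes, and it limits values near the floor.

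Each comparison used its own 4 libraries and the genes that averaged at least 0.5 RPKM in them. Values of log2(RPKM + 0.5) were fitted by limma 3.58.1 under R 4.3.3 (lmFit, then eBayes allowing a trend), and p-values were adjusted by Benjamini-Hochberg over all genes, with a threshold of 0.05. With 2 libraries against 2, an exact permutation test of a single gene cannot go below 0.3333 and was not used. The code was tested on simulated data. Other steps used pandas 2.3.3 and numpy 2.4.6 under Python 3.11.15, with figures by matplotlib 3.10.9. Promoters and upstream stretches are RefSeq's (GRCm38.p6).

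For the 3 genes no p is given, since the choice used the KO and WT libraries. The 3 genes, the lists and the tests were chosen with earlier results of these data known. Other genes were named as label checks, as neighbours (25 annotated genes on each side), as sharing transcript sequence, as the extremes of the lists, or as most alike by Pearson r over the 6 libraries. Genes named for shared sequence or overlap, and those for sex, were added after values were seen. 1 gene of the label checks is not reported here. Replicate numbers shared by KO and Wnt1-Ribotag libraries do not pair them, since the libraries come from different litters. Alternatives covered the pseudocount, the filter on low values, scaling by the median ratio, the eBayes trend, a fit over all 6 libraries, blocks and each library left out.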

Additional observations from a re-analysis of the deposited data

How the results depend on the processing

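The 3 genes kept the sign of each log2 difference under every alternative that could be fitted, except 2610507I01Rik between Wnt1-Ribotag and KO, which was -0.46 without Wnt1-Ribotag 2 and ranged from -0.46 to 0.73 with single libraries left out. The pseudocount set the size between KO and WT: at 0.1, at 1 and with none (added after seeing the data) the differences were 2.78, 1.61 and 3.07 for 2610507I01Rik and -3.52, -1.14 and -6.17 for Zfp979. Scaling by the median ratio, which moved the median gene from -0.10 to 0.00, gave 1.75 for Sfi1 and -1.71 for Zfp979. Zfp979 could not be tested against KO, or between KO and WT, at a minimum mean of 1 RPKM, nor between KO and WT without either WT library. The differences from Wnt1-Ribotag libraries are descriptions, and their values, not their p, are given. Between Wnt1-Ribotag and KO, Sfi1 was -2.23 without a filter and -2.29 to -2.17 with single libraries left out. Zfp979 there was 2.18 with no trend, 2.18 with all 6 libraries in 1 fit and 1.95 to 2.42 with single libraries left out, but 4.05, 1.49 and 6.73 at pseudocounts of 0.1 and 1 and with none. At the same settings 2610507I01Rik between Wnt1-Ribotag and WT was 2.92, 1.75 and 3.20. Between Wnt1-Ribotag and WT, leaving out single libraries gave 1.62 to 2.81 for 2610507I01Rik, -0.67 to -0.53 for Sfi1 and 0.19 to 0.67 for Zfp979.

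Counts of genes past the threshold depended on the fit. For KO against WT the 24 became 0 without a filter (2155 at an unadjusted p under 0.05), 0 with all 6 libraries (495 unadjusted), 45 with no pseudocount and 10 to 106 with single libraries left out, 10 of them without KO 2, 106 without WT 5 and 90 without WT 6. For Wnt1-Ribotag against KO the 171 (146 higher, 25 lower) became 112 without a filter (13 higher, 99 lower), 692 with all 6 libraries and 112 to 3672 with single libraries left out, with 112 without KO 2, 2538 without Wnt1-Ribotag 1 and 3672 without Wnt1-Ribotag 2. For Wnt1-Ribotag against WT the 1 became 0 without a filter (3921 unadjusted), 2 with scaling, 138 with all 6 libraries, 2 with no pseudocount and 26 to 5965 with single libraries left out.

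With the replicate block, Wnt1-Ribotag against KO gave 842 genes, and the difference of Zfp979 was 2.18. Deviations of the libraries with the same number had a correlation of 0.168 across 14325 genes. A block that pairs WT 5 with KO 1 gave 574 genes between KO and WT, and the other pairing gave 29.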

Other observations

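Over the 6 libraries, the genes whose log2 level was most like that of each of the 3 are given as a description, among 14320 genes with a mean of at least 0.5 RPKM. The 6 libraries are 3 groups of 2, so any gene with the same order of groups correlates highly. For Zfp979 they were Tmub1 (r = 0.993), Add2, B4galnt1, Bend3 and Itgb4 (r = 0.985). Add2, a membrane skeleton gene of red cells and neurons, measured 2.36 and 2.18 RPKM in WT, 0.786 and 0.590 RPKM in KO, and 2.60 and 4.09 RPKM in Wnt1-Ribotag libraries. For Sfi1 they were Fnd3c2 (r = 0.994), Klhl13, Cd36, Tmem182 and 4930512H18Rik (r = 0.978). Cd36, a fatty acid receptor gene, measured 12.0 and 13.3 RPKM in WT, 22.1 and 20.3 RPKM in KO, and 10.5 and 8.85 RPKM in Wnt1-Ribotag libraries. For 2610507I01Rik they were Lsm6 (r = 0.971), ENSMUSG00000084931, Jam3, Rbbp8 and Mapk12 (r = 0.947). Lsm6, an RNA-binding protein gene, measured 23.8 and 22.9 RPKM in WT, 31.6 and 33.3 RPKM in KO, and 27.3 and 36.0 RPKM in Wnt1-Ribotag libraries, a far smaller range than the noncoding RNA.

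Zfp990, another zinc finger gene of chromosome 4, was high in the Wnt1-Ribotag libraries, at 7.68 and 3.20 RPKM, against 0.203 and 0.475 RPKM in WT and 0.318 and 0.458 RPKM in KO. Its log2 difference from KO was 2.64, and it entered that comparison only through its Wnt1-Ribotag level. Zfp979 shared only 0.609% of its transcript sequence with Zfp990. Other genes that share sequence with Zfp979 moved both ways. Zfp534 was also high in Wnt1-Ribotag libraries, at 3.83 and 1.15 RPKM, against 0.187 and 0.297 RPKM in WT and 0.191 and 0.156 RPKM in KO. Zfp987 was above WT and KO in both Wnt1-Ribotag libraries, and Zfp986 and Zfp988 in the first alone. Zfp982 and Zfp989 were lower in both than in WT and KO.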
